A study of Mus musculus with 16 samples.

Results

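The loops described here are the shortest of the cochlear loop list. They were chosen by their distance alone, as the rows of the deposited 10 kb list that lie on chromosomes 1 to 19 and whose anchor bins start 100 kb or less apart. This gave 620 of the 6798 loops of the list, or 620 of the 6689 loops on chromosomes 1 to 19, and the remaining 6069 loops served for comparison. The list was made from 4 Micro-C replicates of whole mouse cochlea, labelled P0 (postnatal day 0), while the study's methods give P0/P1, so animals a day older may be in the pool. The sources used here state no strain, treatment or genotype for these samples, and the list makes no comparison between ages. Replicates 1, 2 and 3 were biological and replicate 4 technical by the study's description, and by its tables replicate 4 gave most of the merged read pairs. Because the loops were called on all 4 merged, no value here has a spread between replicates, and the cells of the whole organ were mixed. The list holds no expression values, so the tissue could not be checked against markers, and it gives no read depth.

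In Micro-C, chromatin is cut between nucleosomes and ends that lie close together are ligated, so that a loop appears as a pair of positions in contact more often than their surroundings. Many loops of mammalian genomes form where the cohesin complex draws in DNA until it meets the DNA-binding protein CTCF, and most of these have CTCF sites that point toward each other. Other loops bring a promoter, the stretch at which transcription of a gene starts, to an enhancer or to another promoter. In the cochlea, such contacts are studied for the genes of the sensory hair cells, their supporting cells, the auditory neurons and the connective tissue around the cochlear duct. At the scale of the shortest loops, the anchors can lie in a single gene or on either side of one.

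Each anchor is a 10 kb bin, so the sequence inside it matters for where a loop could be held. The best matches to a CTCF consensus of 14 bases, with at most 1 mismatch, are shown for 5 of the 6 loops of lowest FDR whose anchors had matches pointing toward each other. FDR is the false discovery rate that the loop caller gave to a loop. The matched bases are in capitals, with 12 bases on either side, each read 5′ to 3′ on the strand of the match (mm10). A match on the plus strand at the left anchor and on the minus strand at the right anchor is called convergent.
Kbtbd11 loop, left anchor, chr8:14952442-14952479, plus strand: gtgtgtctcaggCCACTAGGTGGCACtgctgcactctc
Kbtbd11 loop, right anchor, chr8:15043049-15043086, minus strand: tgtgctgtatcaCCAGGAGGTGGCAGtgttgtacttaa
Snai1 loop, left anchor, chr2:167532346-167532383, plus strand: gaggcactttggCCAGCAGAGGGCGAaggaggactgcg
Snai1 loop, right anchor, chr2:167605368-167605405, minus strand: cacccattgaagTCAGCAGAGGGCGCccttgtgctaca
Ptpre loop, left anchor, chr7:135537380-135537417, plus strand: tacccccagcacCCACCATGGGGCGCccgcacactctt
Ptpre loop, right anchor, chr7:135631980-135632017, minus strand: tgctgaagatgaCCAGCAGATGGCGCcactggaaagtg
Cped1 loop, left anchor, chr6:21985072-21985109, plus strand: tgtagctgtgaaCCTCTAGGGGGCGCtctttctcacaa
Cped1 loop, right anchor, chr6:22071601-22071638, minus strand: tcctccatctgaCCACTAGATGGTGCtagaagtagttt
Crhbp loop, left anchor, chr13:95390342-95390379, plus strand: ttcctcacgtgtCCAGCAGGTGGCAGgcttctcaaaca
Crhbp loop, right anchor, chr13:95477261-95477298, minus strand: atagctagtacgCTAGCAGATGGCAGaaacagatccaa
Each match is written on its own strand, so the 2 of a pair read the same way whatever their orientation. The 2 matches of the Kbtbd11 loop lay 90607 bases apart and those of the Snai1 loop 73022 bases apart. In the Snai1, Ptpre and Cped1 loops the left match lay in the anchor that also held the gene's start site. The left anchor of the Snai1 loop had 2 plus-strand matches within the limit, and the first is shown. A match is a description of the sequence and not a measured site of binding.

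A CTCF match was found in 57.2% of the 1240 anchor bins of the shortest loops (709 bins, 95% Wilson interval 54.4 to 59.9%), against 21.6% of all 239715 bins of the same length on these chromosomes. The other loops had a match in 47.5% of 10382 anchor bins (46.5 to 48.5%), with bins used by both sets counted with the shortest. The difference of 9.67 percentage points had a 95% Newcombe interval of 6.74 to 12.6, which leaves out 0. Against loops of 110 to 200 kb alone it was 6.49 points (3.27 to 9.67). Anchor bins of the shortest loops were also richer in G and C, with a median GC content of 46.3% against 43.9% for the other anchor bins and 41.4% for all bins. Within 10 groups of like GC content the difference in CTCF matches was 4.44 points (1.55 to 7.32). The shares are set by the mismatch limit. With no mismatch they were 18.2% and 13.1% (difference 5.13 points), and with at most 2 mismatches 97.1% and 93.2% (3.85 points).

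Promoters in the anchors could hold such a match themselves. Of the 257 protein-coding start sites in anchors of the shortest loops, 182 had a promoter in the RefSeq table (GRCm38.p6, from 250 bases before to 50 after the start) whose start lay in the same bin. A CTCF match with at most 1 mismatch lay in 15 of these 182 promoters, or 8.24% (Wilson interval 5.06 to 13.2%), beside 749 of all 32851 promoters in the table, or 2.28%. Promoters in anchors of the other loops were not counted, so the higher share cannot be called particular to the shortest loops. The promoters with a match at the 12 loops of lowest FDR that join 2 start sites are shown, with the matched bases in capitals and the strand being that of the gene.
Wdr38 promoter, chr2:38998059-38998358, plus strand: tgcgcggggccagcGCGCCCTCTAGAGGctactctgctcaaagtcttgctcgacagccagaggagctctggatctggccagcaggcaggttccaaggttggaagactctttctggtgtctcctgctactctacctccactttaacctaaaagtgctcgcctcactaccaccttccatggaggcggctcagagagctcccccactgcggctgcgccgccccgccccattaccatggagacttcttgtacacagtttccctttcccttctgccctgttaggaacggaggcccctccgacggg
Pigc promoter, chr1:161968938-161969237, plus strand: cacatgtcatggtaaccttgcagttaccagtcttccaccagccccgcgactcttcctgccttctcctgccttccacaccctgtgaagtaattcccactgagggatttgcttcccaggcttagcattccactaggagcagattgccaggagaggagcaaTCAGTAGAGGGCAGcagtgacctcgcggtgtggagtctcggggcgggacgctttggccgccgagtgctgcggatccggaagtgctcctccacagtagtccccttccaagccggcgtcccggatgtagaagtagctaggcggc
In Wdr38, which encodes a WD-repeat protein, the match lay on the strand opposite to the gene, starting 236 bases before the RefSeq start site. The RefSeq start of Wdr38 lay 833 bases from the GENCODE start in the same bin. In Pigc, an enzyme of the synthesis of glycosylphosphatidylinositol anchors, the match lay on the gene's strand, 92 bases before the start.

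The number of loops rose with distance up to the limit. There were 3 loops of 60 kb, 116 of 70 kb, 127 of 80 kb, 169 of 90 kb and 205 of 100 kb. Just outside the limit there were 196 loops of 110 kb and 205 of 120 kb, so the counts show no step at the limit of 100 kb. The share with a start site in an anchor was 30.2% at 100 kb and 30.1% at 110 kb.

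**Figure D1:**
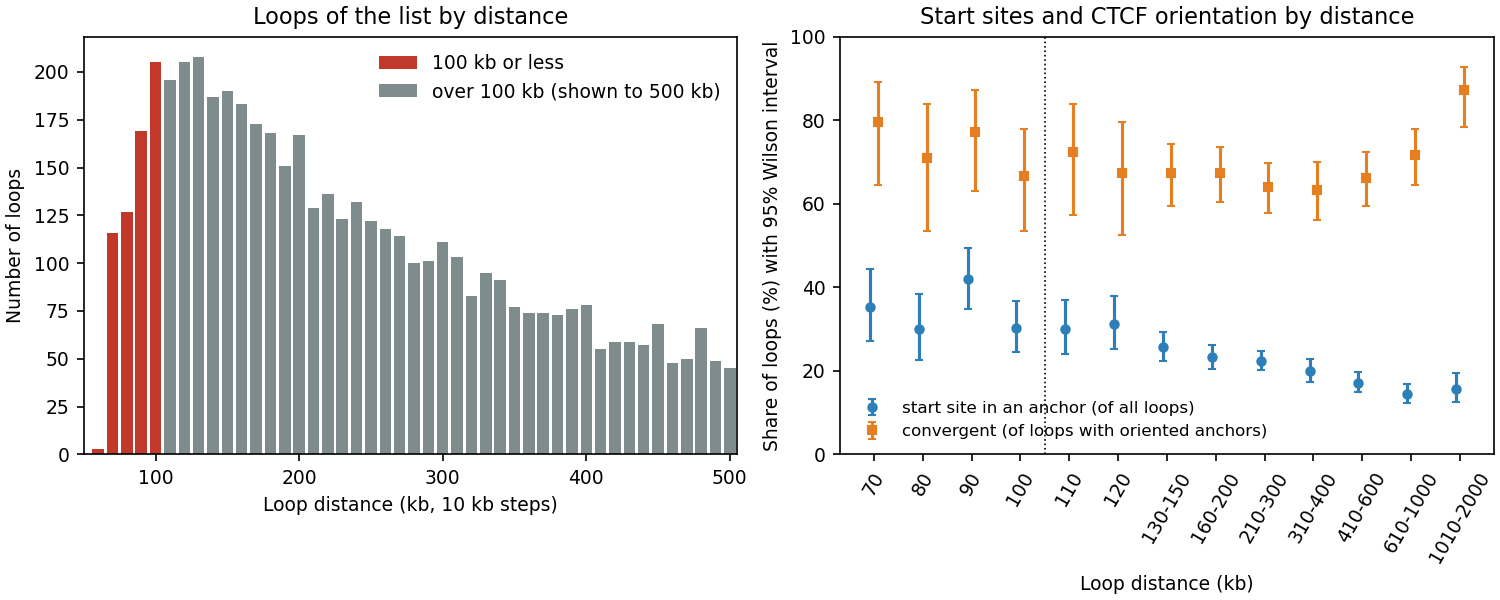
Left, number of loops (y axis) at each distance in 10 kb steps (x axis, kb), with the 620 loops of 100 kb or less in red. Right, share of loops in percent with 95% Wilson intervals by distance class (classes of under 20 loops left out), for loops with a start site in an anchor (circles) and for convergent loops among those with oriented anchors (squares), with the dotted line at the limit. The share with a start site was 35.3% at 70 kb and 14.4% in the class that ends at 1000 kb.

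The FDRs of the shortest and of the other loops overlapped widely. The median was 0.00945 (quartiles 0.00141 and 0.0351) for the shortest loops and 0.0115 (0.00144 and 0.0432) for the others, and 509 of 620 loops (82.1%) had an FDR under 0.05, where the share over all 6689 loops was 79.0%. An FDR under 0.01 was given to 314 loops (50.6%), where the share over all loops was 48.1%. The detection scale is the scale at which the caller found a loop. Its smallest value was that of 85.6% of the shortest loops and 70.2% of the others. FDR and scale come from the same caller as the loops and are given as a description.

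The shortest loops were spread unevenly over the chromosomes. Chromosome 11 had 53 of them, or 0.434 per Mb, the highest density, and chromosome 2 had the highest number, 61. Chromosomes 7 and 4 had 49 each. The lowest densities were on chromosomes 18 (15 loops, 0.165 per Mb) and 16 (17 loops, 0.173 per Mb). On chromosome 11 the shortest loops made up 15.4% of all loops and on chromosome 18 5.81%. These chromosomes had 13.4 and 5.66 protein-coding genes per Mb.

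Start sites of protein-coding genes lay in the anchors more often than in longer loops. At least 1 anchor held a start site in 215 of the 620 shortest loops, or 34.7% (Wilson interval 31.0 to 38.5%), and in 1252 of the 6069 other loops, or 20.6% (19.6 to 21.7%). The difference was 14 percentage points (Newcombe interval 10.3 to 18). Loops of 110 to 200 kb lay between, with a share of 25.7% and a difference of 9.02 points (4.84 to 13.3), and within 10 groups of like anchor GC content the difference was 8.06 points (4.14 to 12). With all transcript starts the shares were 55.3% and 36.4%, and with bins widened by 10 kb on each side 69.8% and 47.9%, so their level depends on the definition. By bin, 237 of 1240 anchor bins held a start site (19.1%), beside 11.1% of the other anchor bins and 7.76% of all bins. The bins just outside the left and right anchors held 21.5 and 25.2 start sites per Mb, against 21.3 and 20.2 in the anchors. A density above that of all bins was therefore not particular to the anchor bins. The median distance from an anchor bin to the nearest start site was 12833 bases for the shortest loops and 31154 bases for the others. The intervals cover counting error over loops only, and loops that share anchors or neighbourhoods are not independent.

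Most of the remaining anchor bins also lay in genes. A further 524 bins (42.3%) overlapped an exon of a protein-coding gene, 125 (10.1%) lay in introns only, and 354 (28.5%) held no protein-coding gene. Among the other loops, 33.5% of anchor bins overlapped an exon without a start site, 13.9% lay in introns only and 41.5% lay outside protein-coding genes. When all annotated genes were counted, 391 bins of the shortest loops (31.5%) held a start site, beside 21.4% of the other anchor bins. The 1240 anchor bins of the shortest loops held the start sites of 45 lincRNAs, 40 antisense RNAs and 26 miRNAs, and the 10382 others held 378, 214 and 103.

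**Figure D2:**
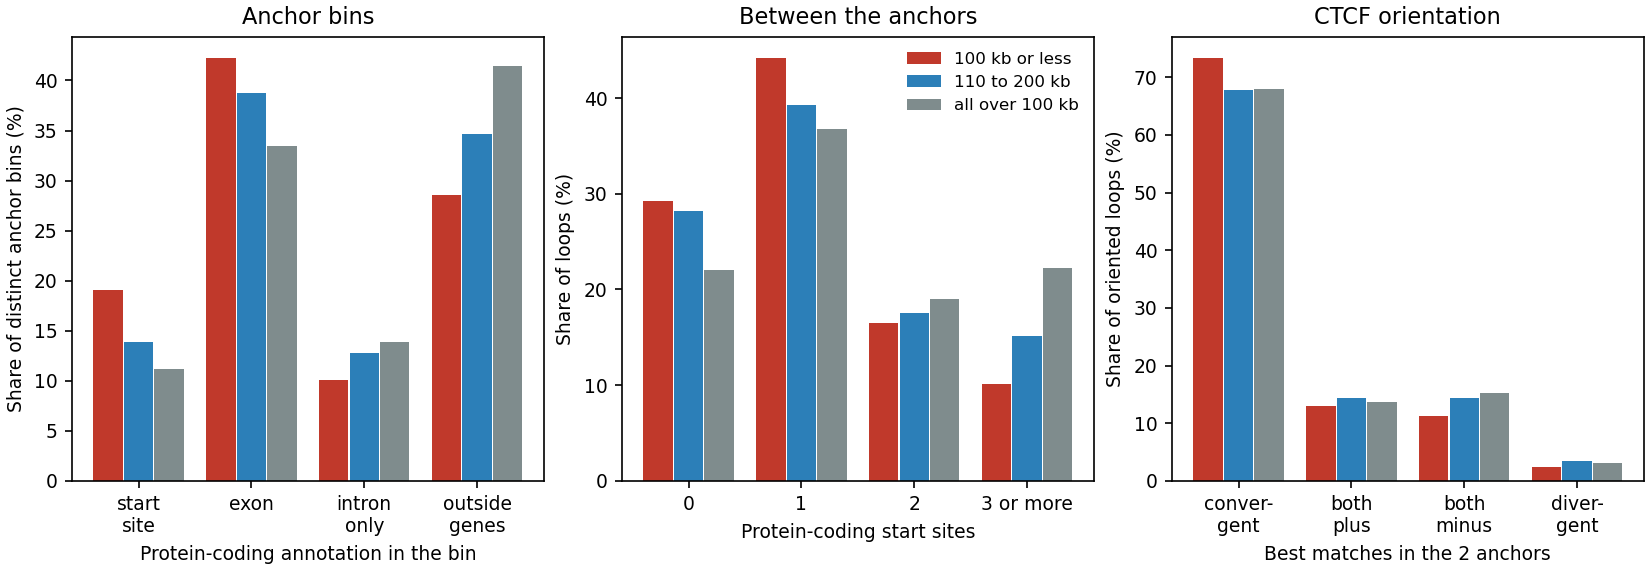
Shares in percent for loops of 100 kb or less (red), of 110 to 200 kb (blue) and all over 100 kb (grey). Left, distinct anchor bins by the protein-coding annotation in them; middle, loops by the number of protein-coding start sites between the anchors; right, loops with oriented anchors by the strands of the best CTCF matches. In the red set 19.1% of anchor bins hold a start site and 42.3% only an exon, and 44.2% of loops have a single start site between the anchors.

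The 10 loops of lowest FDR lay at genes with widely different roles. The lowest FDR, 4.03e-07, belonged to a 90 kb loop from chr7:73530001-73540000 to chr7:73620001-73630000. Its left anchor overlapped exon sequence of Chd2 (ENSMUSG00000078671.11, minus strand), a chromatin remodeler, whose start site at position 73541830 lay 1.83 kb inside the loop. Its right anchor held no protein-coding gene. In a like layout, a loop with a right anchor outside protein-coding genes had a left anchor that overlapped exon sequence of Zmynd8 (FDR 5.31e-06), a reader of histone marks, whose start site lay 69.0 kb beyond the inner edge of that anchor. A loop of 100 kb with an FDR of 1.66e-05 ran from an intron of Podxl, a sialomucin of the cell surface, to a bin outside genes, with the Podxl start site 24.0 kb inside.

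In 6 of these 10 loops an anchor bin held no protein-coding gene. The Kbtbd11 loop (90 kb, FDR 3.19e-06) ran from exon sequence of Arhgef10, a guanine nucleotide exchange factor, to the start site of BB014433, and enclosed Kbtbd11 whole. A loop on chromosome 17 (80 kb, FDR 1.10e-05) enclosed Ankrd66 and the start of Pla2g7, which encodes a phospholipase of lipid mediators. The 10th loop enclosed 3 genes whole on chromosome 8 (FDR 1.88e-05): Scrg1, Sap30, a subunit of a histone deacetylase complex, and Hmgb2, a DNA-bending protein.

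Snai1, a zinc finger repressor known from epithelial to mesenchymal transition, had a loop of its own. Its start site (chr2, position 167538195, plus strand) lay in the left anchor of a 70 kb loop with an FDR of 1.35e-05. The right anchor, chr2:167600001-167610000, overlapped exon sequence at the ends of Ube2v1 and Gm20431. No other protein-coding start site lay between, and neither anchor was used by another loop.

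At the shortest distance of 60 kb there were 3 loops, and each had a start site in its right anchor. Otogl (ENSMUSG00000091455.4), which encodes an otogelin-like protein of the inner ear's acellular membranes, had its start site at position 107912134 of chromosome 10, in the right anchor. Its left anchor, chr10:107850001-107860000, overlapped an exon of the same gene (FDR 0.00783). Sptb, a spectrin of the membrane skeleton, had the same layout on chromosome 12, with its left anchor in an intron (FDR 0.0137). Gfra3, a co-receptor for a neurotrophic factor, lay whole within its loop on chromosome 18 (FDR 0.00212). No protein-coding start site lay between the anchors of these loops.

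The body of a single protein-coding gene overlapped both anchor bins in 107 of the 620 shortest loops, or 17.3% (Wilson interval 14.5 to 20.4%). This was so in 499 of the other loops, or 8.22% (7.56 to 8.94%). An anchor bin could also run past an end of the gene. The difference was 9.04 points (Newcombe interval 6.17 to 12.3). A longer loop has fewer genes long enough to overlap both its anchors. Against loops of 110 to 200 kb the difference was 3.91 points (0.693 to 7.41). In 48 of the 107 loops (44.9%) an anchor held the gene's own start site, as in 117 of the 499 other loops (23.4%).

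In 7 of the 8 such loops of lowest FDR an anchor held the start site of the gene that ran through the loop. Creb3l2, a transcription factor held in the endoplasmic reticulum membrane, had its start site in the right anchor and an exon in the left (90 kb, FDR 1.29e-05). Ptpre, a receptor tyrosine phosphatase, had its start site in the left anchor, and the right anchor lay in an intron (100 kb, FDR 1.61e-05). Nfix, a nuclear factor I transcription factor, had its start site in the right anchor of a 90 kb loop (FDR 3.69e-05). Arhgap22 (FDR 6.06e-05) and Arhgap31 (FDR 7.11e-05), which are GTPase-activating proteins, each had the start site in an anchor and an exon in the other, as did Myof, a membrane repair protein (FDR 0.000116). Cped1 had its start site in the left anchor and an intron in the right (FDR 3.02e-05). The exception was Ttc23, whose start site lay outside its loop, and there the right anchor held the start site of Synm, an intermediate filament protein (80 kb, FDR 5.88e-05).

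In 5 of the loops the start site and the far end of the gene lay in opposite anchors, so that the loop spanned the gene from end to end. These genes were Map2k1 (67.9 kb), a MAP kinase kinase, Ptprf (83.2 kb), a receptor tyrosine phosphatase, Dnmbp (93.4 kb), a Cdc42 exchange factor, Znrf1 (89.9 kb), a ubiquitin ligase, and Plch2 (73.7 kb), a phospholipase C. Their FDRs ran from 0.00241 for Map2k1 to 0.0716 for Plch2. These 5 were named after their values were seen. Among the other loops, 16 of the 499 with a single gene body overlapping both anchors had this layout.

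**Figure D3:**
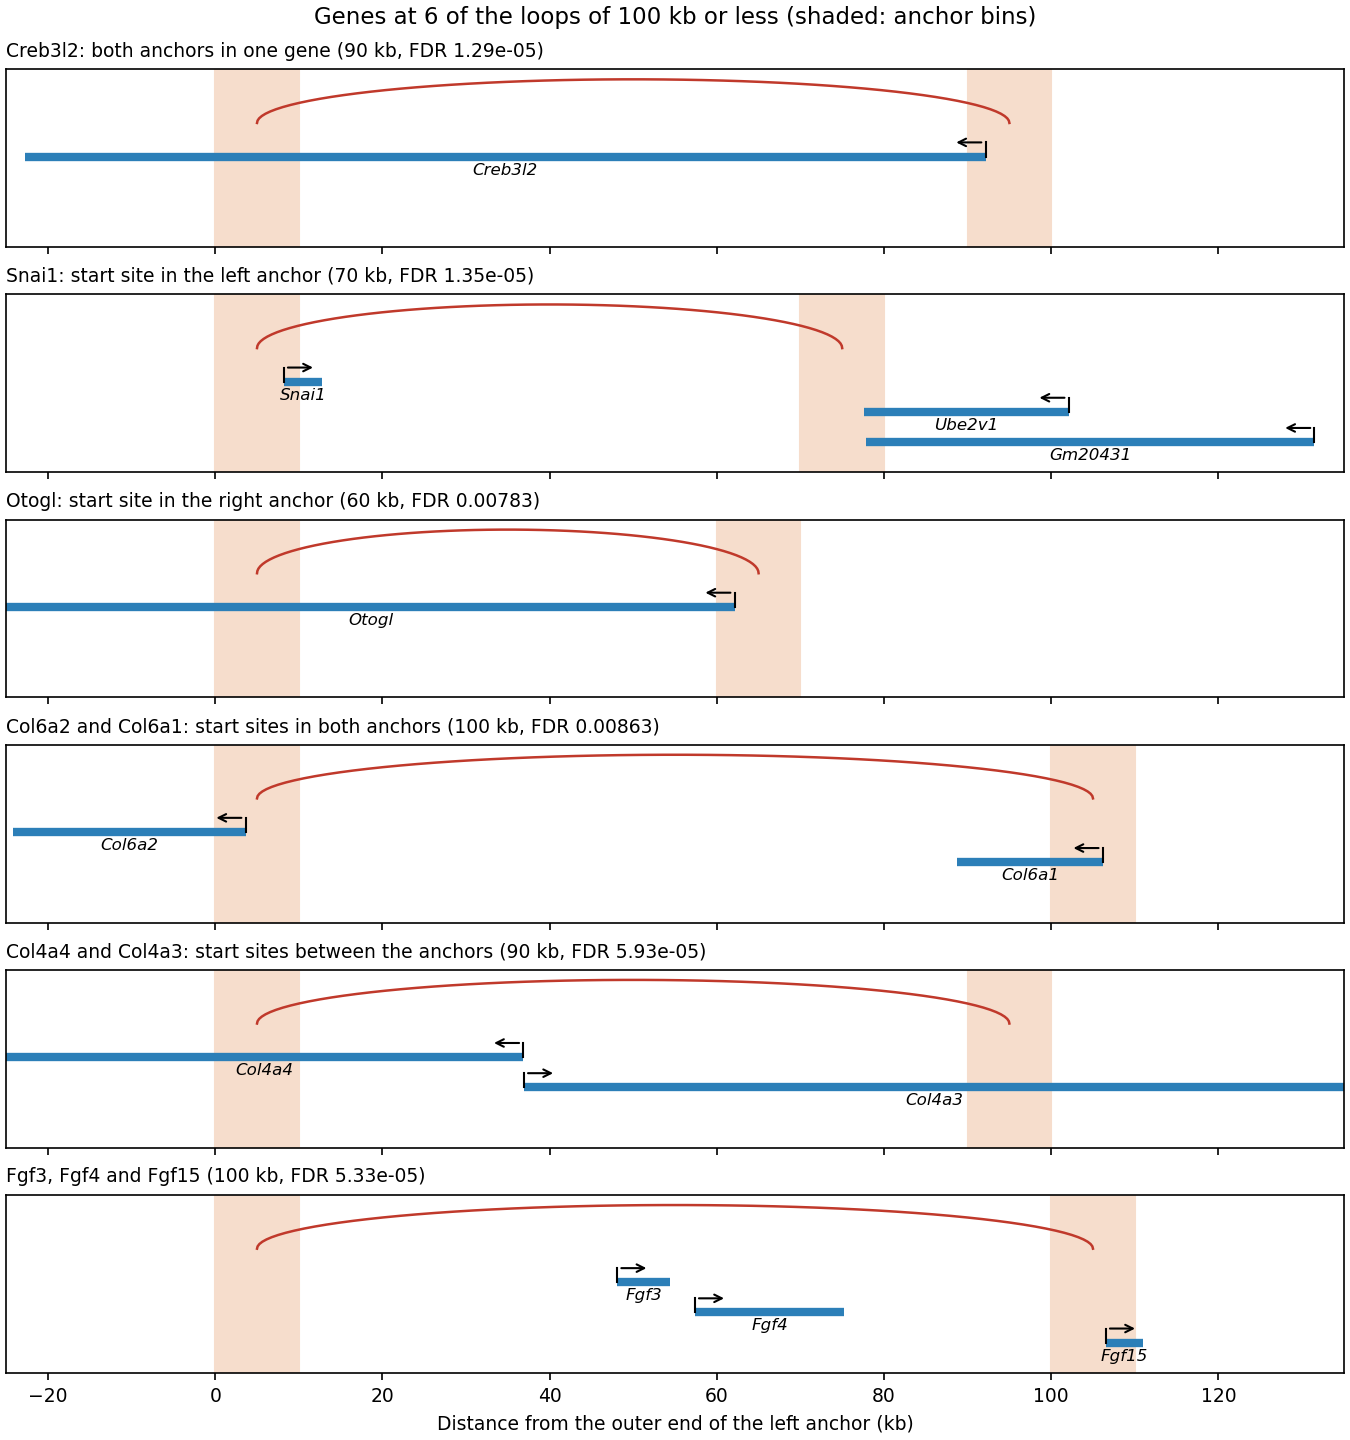
Gene maps of 6 of the loops, with the distance from the outer end of the left anchor on the x axis (kb), the anchor bins shaded, the loop as an arc, genes as blue bars and start sites as arrows in the direction of transcription. Start sites lie in an anchor of the Creb3l2, Snai1, Otogl and Fgf15 maps, in both anchors of the Col6a2 and Col6a1 map, and between the anchors for Col4a4 and Col4a3.

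Start sites lay in both anchors of 22 of the 620 shortest loops, or 3.55% (Wilson interval 2.35 to 5.31%), and of 78 other loops, or 1.29% (1.03 to 1.60%). The difference was 2.26 points (Newcombe interval 1.03 to 4.05). Within 10 groups of like GC content it was 1.45 points with an interval that holds 0 (-0.0831 to 2.98), and against loops of 110 to 200 kb it was 1.52 points (0.113 to 3.37). It was 1.34 points (0.00677 to 3.76) among loops with an FDR under 0.01, 6.79 points with all transcript starts and 6.27 points with all annotated genes. With bins widened by 10 kb on each side the shares were 19.2% and 8.22%. In 20 of the 22 loops each anchor held 1 start site, and the genes pointed away from each other in 7, toward each other in 3 and the same way in 10. In the 60 other loops of this kind they pointed away from each other in 12, toward each other in 19 and the same way in the rest, and the difference was not tested.

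Members of the same gene family stood at both ends of 2 of the 12 loops of lowest FDR. Col6a2 and Col6a1, which encode chains of collagen VI, had start sites at positions 76623630 and 76726168 of chromosome 10, both on the minus strand, in the anchors of a 100 kb loop (FDR 0.00863). No other protein-coding start site lay between them. Gbp5 and Gbp3, interferon-induced GTPases, were joined over 70 kb, with Gbp7 of the same family between (FDR 0.000803). Other loops among the 12 of lowest FDR joined Nr6a1, an orphan nuclear receptor, and Wdr38 (FDR 0.000713), Xirp1, an actin-binding protein, and Ccr8, a chemokine receptor (FDR 0.00168), and Sort1, a sorting receptor, and Psrc1 (FDR 0.00252).

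Suco and Pigc (FDR 0.00654) and Eef2k, the kinase of a translation elongation factor, and Polr3e, a subunit of RNA polymerase III (FDR 0.00718), were joined with no start site between. Psmb6, a proteasome subunit, was joined to a bin with the start sites of 4930544D05Rik and of Chrne, a subunit of the acetylcholine receptor of muscle (FDR 0.00137). The water channel gene Aqp5 was joined over 80 kb to Asic1, an acid-sensing ion channel, with Aqp6 and Racgap1 between (FDR 0.0159). A bin with 1600002K03Rik and Efna2, an ephrin ligand, was joined to Ndufs7, a subunit of respiratory complex I (FDR 0.0119). Prss21, a serine protease, and Sbpl were joined over 90 kb, with Dcpp1, Dcpp2, Dcpp3 and Sbp between (FDR 0.0127). Plec, the cytoskeletal linker plectin, and Gpaa1 stood at the ends of a loop with 6 start sites between (FDR 0.0105).

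Of the 257 pairs of a loop and a start site in its anchor, 138 were transcribed into the loop, or 53.7% (Wilson interval 47.6 to 59.7%), beside 765 of 1462, or 52.3% (49.8 to 54.9%), in the other loops. The difference of 1.37 points had an interval of -5.25 to 7.89, which holds 0. Its sign turned to -2.73 points (-5.83 to 0.398) when all transcript starts were counted.

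**Figure D4:**
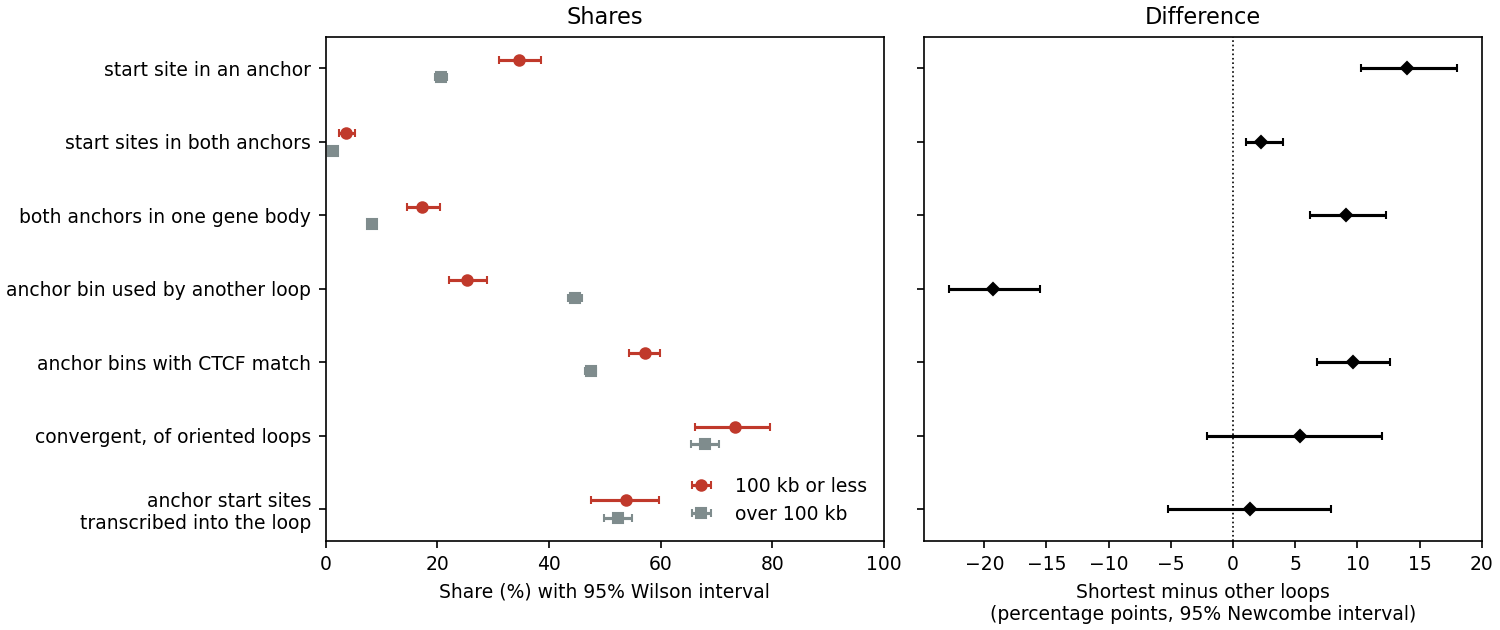
Left, the 7 shares compared, in percent with 95% Wilson intervals, for loops of 100 kb or less (circles) and over 100 kb (squares). Right, the difference in percentage points with its 95% Newcombe interval, with a dotted line at 0. The interval leaves out 0 for 5 of the 7 shares, and the share of loops with a shared anchor bin is the one that was lower in the shortest loops.

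Between their anchors the shortest loops held 721 protein-coding start sites, or 15.0 per Mb summed over loops, against 9.90 per Mb for loops of 110 to 200 kb and 8.45 protein-coding genes per Mb over chromosomes 1 to 19. A single start site lay between the anchors of 274 loops (44.2%), none in 181 (29.2%), 2 in 102 and 3 or more in 63 (10.2%). The most was 10. No protein-coding start site lay in an anchor or between in 92 loops (14.8%), beside 14.5% of the other loops. The span of a loop sets how many start sites it can hold, so these numbers are a description.

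The density was lower between the anchors than in them and in the bins next to them. It was 21.3 start sites per Mb in the left anchors and 20.2 in the right anchors, was between 12.6 and 17.2 in the 5 equal parts of the stretch between, and was 21.5 and 25.2 in the bins just outside the left and right anchors. At 100 kb outside it was 19.8 on the left and 16.1 on the right. Loops of 110 to 200 kb had the same order of places at lower levels, with 15.2 and 15.4 per Mb in the anchors, between 8.63 and 10.9 inside, and 18.9 and 17.7 just outside.

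**Figure D5:**
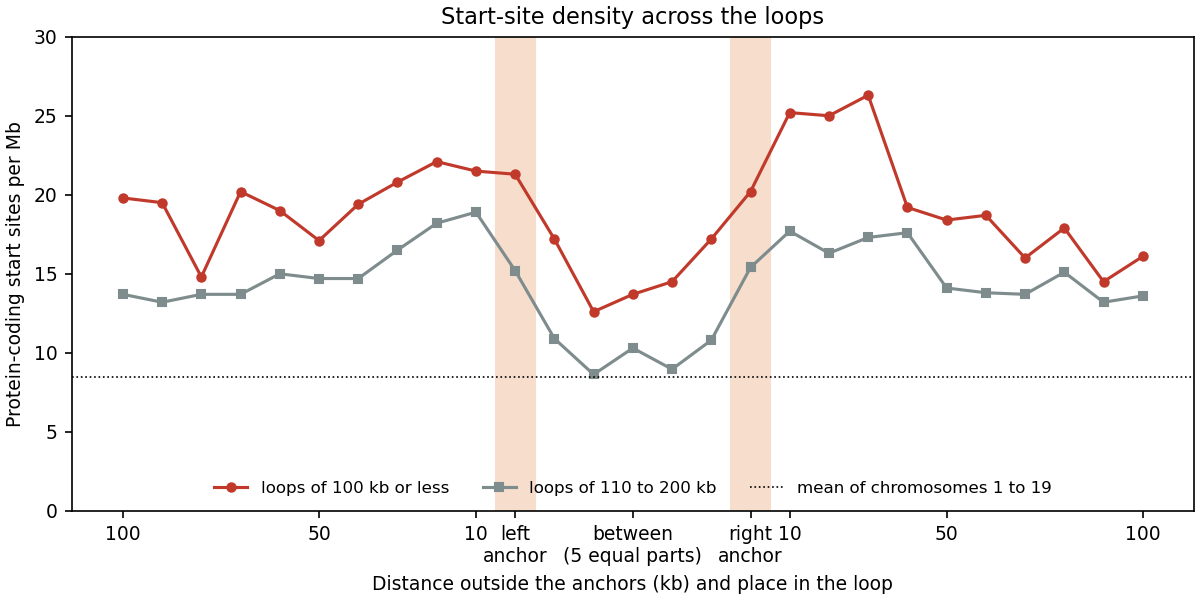
Protein-coding start sites per Mb (y axis) in 10 kb bins up to 100 kb outside the anchors, in the anchors (shaded) and in 5 equal parts between them (x axis), for loops of 100 kb or less (red circles) and of 110 to 200 kb (grey squares). The dotted line is the mean of chromosomes 1 to 19, 8.45 per Mb. The red points are lowest inside the loops, at 12.6 per Mb, and reach 26.3 per Mb outside the right anchor.

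In 193 of the 620 loops (31.1%) exactly 1 protein-coding gene lay whole within the outer ends of the anchors, beside 31.0% of the other loops. This gene covered a median of 25.7% of the loop (quartiles 10.5 and 50.2%). Of the 8 loops of lowest FDR that also had a start site in an anchor, those of Sdc3, a heparan sulfate proteoglycan (90 kb, FDR 5.85e-05), and B3galt5, a galactosyltransferase (100 kb, FDR 0.000226), had the enclosed gene's own start site in the left anchor, as the Snai1 loop did. Epha2, an ephrin receptor, lay whole in a 90 kb loop whose right anchor held the start site of Fam131c (FDR 0.000283). Lzts1 lay between an anchor at Atp6v1b2, a proton pump subunit, and the start site of Zfp930 (FDR 0.000321), and Pip4p2 in a loop with the start site of Otud6b, a deubiquitinase, in its left anchor (FDR 0.000420). The Nfix loop enclosed G430095P16Rik whole, and the Ttc23 loop enclosed Synm.

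The 3 loops with most start sites held 8 or more within their outer ends. The loop with the most ran over 90 kb on chromosome 17, from Vwa7 to Ly6g5c, with 10 start sites between (FDR 0.0279). These included Msh5, a protein of meiosis, Clic1, Ddah2 and 4 genes of the Ly6g6 group. A 100 kb loop on chromosome 7 (FDR 0.00847) held Ifitm1, Ifitm2, Ifitm3, Ifitm5 and Ifitm6 and 2 further start sites, with Pgghg in its left anchor. The Ifitm family is named for interferon-induced membrane proteins. The loop from Plec to Gpaa1 was the third.

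Genes known from the cochlea were looked up in 10 lists. Of 310 genes found, 20 had a start site in an anchor (7 genes) or between the anchors (13 genes) of the shortest loops, or 6.45%, where the share over all 20807 protein-coding genes was 4.70%. By list, the counts were 4 of 33 for the Fgf pathway, 7 of 57 for the Bmp and Wnt pathways, 4 of 30 for the otic capsule and mesenchyme, 1 of 26 for the Notch pathway and 1 of 21 for supporting cells and tectorial membrane. There was 1 of 40 otic and hair cell transcription factors, 1 of 33 hair bundle genes and 1 of 32 genes of the spiral ganglion. None of the 15 genes of the hair cell synapse and electromotility and none of the 23 genes of the stria vascularis had a start site there. In the loops over 100 kb, 71.9% of the listed genes and 37.4% of all protein-coding genes had such a start site. By list, the shares there ran from 45.5% for hair bundle genes to 97.5% for otic and hair cell transcription factors. Low counts in the shortest loops therefore do not mean that these genes lack loops.

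The Fgf genes were ligands. A 100 kb loop from chr7:144790001-144800000 to chr7:144890001-144900000 (FDR 5.33e-05) enclosed Fgf3 and Fgf4 and had the start site of Fgf15 in its right anchor, all on the plus strand. Fgf3, a ligand known for its part in forming the inner ear, started 38.1 kb from the left anchor and 51.9 kb from the right. Fgf4 started 47.4 kb from the left anchor. The start site of Fgf2 lay 18.3 kb inside a loop of 80 kb with an FDR of 0.0943, near the limit of the list.

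Of the Bmp and Wnt genes, 4 encoded receptors for Wnt ligands or R-spondins. Frizzled receptor genes Fzd7 (100 kb, FDR 0.0161) and Fzd3 (90 kb, FDR 0.0436) had their start sites in an anchor and lay whole in their loops. Fzd2, of the same family, lay between the anchors of a 70 kb loop (FDR 0.00867). Lgr4, a receptor for R-spondins, had its start site in the left anchor and an exon in the right (90 kb, FDR 0.00538). Dkk3, of the Dickkopf family, lay whole in its loop (FDR 0.00681), and so did Id3, a helix-loop-helix inhibitor induced by Bmp signalling (FDR 0.000278). The start site of the Bmp receptor gene Bmpr1a lay 43.3 kb inside a loop of 100 kb (FDR 0.00364).

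Genes of the connective tissue included collagens. Col4a4 and Col4a3, whose products join in the collagen IV network of basement membranes, start at positions 82586849 and 82586921 of chromosome 1 on opposite strands. Both start sites lay in a 90 kb loop whose left anchor was in an intron of Col4a4 and whose right anchor overlapped an exon of Col4a3 (FDR 5.93e-05). Col1a2, a chain of collagen I, had its start site in the right anchor of an 80 kb loop (FDR 0.00551). Pdgfrb, a growth factor receptor of mesenchymal cells, started 55.1 kb inside a loop on chromosome 18 (FDR 0.0161).

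The forkhead transcription factor gene Foxi1 lay whole in an 80 kb loop and started 1.91 kb from its right anchor (FDR 0.000557). Neurog1, which specifies the cochlear neurons, lay whole in a 70 kb loop, 7.84 kb from the right anchor (FDR 0.00160). Both anchors of these loops lay outside protein-coding genes. Myo6, a motor protein of the hair bundle, started 5.03 kb from the left anchor of a 100 kb loop (FDR 0.0830), and Maml3, a Notch coactivator, had its start site in the left anchor of a 90 kb loop (FDR 0.0879).

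The shortest loops shared their anchors less often than all longer loops pooled. An anchor bin was also an anchor of another loop in 157 of 620 loops, or 25.3% (Wilson interval 22.1 to 28.9%), and in 2707 of 6069 other loops, or 44.6% (43.4 to 45.9%). The difference was -19.3 points (Newcombe interval -22.8 to -15.5), and -5.04 points (-8.95 to -0.916) against loops of 110 to 200 kb. At the limit the order was not the same: the share was 30.2% at 100 kb, 20.4% at 110 kb and 25.9% at 120 kb. None of the 1240 anchor bins was used by 2 of the shortest loops. A longer loop used 167 of the bins, and the most loops at any of them was 3. Of the longer loops at these bins, 155 left the bin on the same side as the short loop and 17 on the opposite side, and their median distance was 240 kb. A longer loop enclosed 296 of the shortest loops (47.7%) and 49.2% of the other loops.

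Where each anchor had its best CTCF matches on 1 strand, the loop could be read as oriented. This held for 169 of the shortest loops, of which 124 were convergent, or 73.4% (Wilson interval 66.2 to 79.5%), 22 had both matches on the plus strand, 19 both on the minus strand and 4 were divergent. Of the other loops, 893 of 1314 were convergent, or 68.0% (65.4 to 70.4%). The difference of 5.41 points had an interval of -2.13 to 12, which holds 0. Read by side, 277 of 324 oriented left anchors (85.5%) had the match on the plus strand and 52 of 317 oriented right anchors (16.4%) did. Anchor bins with a start site held a CTCF match in 145 of 237 cases (61.2%), and those without in 564 of 1003 (56.2%), a difference of 4.95 points with an interval of -2.08 to 11.7, which holds 0. Neither anchor had a match in 126 of the 620 loops. In 39 of these 126 an anchor held a start site, beside 215 of all 620 shortest loops (34.7%).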

How the data were processed

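Whole mouse cochlea was profiled by Micro-C in 4 replicates, and the 12 ATAC-seq and CUT&RUN samples of the series were not analysed here. The authors aligned reads to mm10 with BWA-MEM, kept pairs on different chromosomes, in atypical orientation or far apart, and removed duplicates with pairtools. Mustache was then run by them on the merged replicates at 10 kb. The FDR, a q-value below 0.1 throughout, and the detection scale, a score that the caller gives each loop, were used as the authors deposited them. The deposited list holds no read depth, and its columns of chromosome, bin start, FDR and detection scale were used.

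Distance was taken between bin starts. Genes came from GENCODE vM21 on GRCm38, and start sites are the 5′ ends of its protein-coding genes. All bins ended within the chromosome lengths of this build. Protein-coding annotation in an anchor counts exons of all transcripts. The CTCF consensus was written from general knowledge, and a bin whose best plus and minus matches tied has no orientation. Shares were compared as differences with 95% Newcombe intervals, from Wilson intervals, with no p-value, since loops are not replicates. The functions were tested on simulated data. Python 3.11.15, numpy 2.4.6, pandas 2.3.3, scipy 1.17.1 and matplotlib 3.10.9 were used.

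The loops, the gene lists and the comparisons were chosen with earlier results of these data known. Loops and genes were named by rule. Named were the 10 of lowest FDR, those of the shortest distance and the 12 of lowest FDR with start sites in both anchors. The 8 of lowest FDR with a single gene body overlapping both anchors were also named. The rest were the 8 of lowest FDR with exactly 1 enclosed gene and a start site in an anchor, those with a listed gene, and the 3 with most start sites. One of the 10 loops of lowest FDR is not reported here.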

Additional observations from a re-analysis of the deposited data

How the results depend on the processing

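No paired analysis was possible because the list was called on the merged replicates and gives no value per replicate, and leaving out a replicate could not be done for the same reason. Each of the 7 differences of shares was recomputed under the alternatives that applied to it, which gave 63 values. Of these, 59 kept the sign of the difference and whether its interval held 0. For the convergent share and the share transcribed into the loop, the main interval held 0, so an unchanged value there shows no difference. The alternatives were FDR limits of 0.05 and 0.01 (509 and 314 of the shortest loops), the smallest detection scale, limits of 80 and 120 kb, loops of 110 to 200 kb as the comparison, other start sites, gene bodies and bin widths, and, for the CTCF results, 0 or 2 mismatches in the consensus.

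Comparison within 10 groups of like anchor GC content was added after the data were seen. There the difference in start sites in both anchors was 1.45 points (-0.0831 to 2.98), with an interval that holds 0, and the convergent share differed by 7.49 points (0.139 to 14.8), with an interval that no longer does. The share of anchor start sites transcribed into the loop changed sign, to -1.70 points at a limit of 120 kb and to -2.73 points with all transcript starts. The cause was not tested. Loops of 10 kb bins limit the place of an anchor to the bin.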

Other observations

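By symbol, 9 of 43 collagen genes had a start site in an anchor or between the anchors of a loop of 100 kb or less (20.9%), where the share over all protein-coding genes was 4.70%. Besides Col4a3, Col4a4, Col6a1, Col6a2 and Col1a2, these were Col27a1 (100 kb, FDR 0.000262), Col5a3 (90 kb, FDR 0.000441), Col18a1 (100 kb, FDR 0.000901) and Col26a1 (90 kb, FDR 0.0265). The group was looked up after several of its members had been seen, and pairs of these genes share a loop. Of 92 potassium channel genes (Kcn) 7 had such a start site, among them Kcna2 and Kcna10 on chromosome 3, and of 358 solute carriers (Slc) 22 did (6.15%). Of 1128 olfactory receptor genes (Olfr) 11 did (0.975%), all on chromosomes 1 and 11. No keratin (of 53), vomeronasal receptor (of 329) or Hist-named histone gene (of 67) did. In the loops over 100 kb, 46 of the 53 keratin genes had such a start site (86.8%). The shares there were 60.5% for collagens, 69.6% for potassium channels, 43.0% for solute carriers and 14.4% for olfactory receptors. They were 9.73% for vomeronasal receptors, 2.99% for Hist-named genes and 37.4% for all protein-coding genes. Collagens were thus above the share of all genes in the longer loops too. A further 6 loops of 100 kb or less lay on chromosome X and were not analysed here.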
